A study of Drosophila melanogaster with 57 samples.

Results

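MicroRNA (miRNA) genes were compared with the piRNA clusters that the study reported for ovaries, cultured germline stem cells (GSCs), and the somatic support cells of those cultures. A miRNA gene was any gene of the dm6 annotation whose symbol starts with mir-, which takes in let-7 (mir-let7) and bantam (mir-ban) under their present symbols. The annotation held 262 such genes among 18358 genes. Of these, 260 lay on the assembled chromosomes, and the other 2, mir-10404-1 and mir-10404-2, lay on a ribosomal DNA scaffold that the list does not cover. The list held 3356 regions, and 95 of the 260 miRNA genes shared at least 1 bp with a region.

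The study sequenced small RNAs from 6 groups with 3 libraries each, and the libraries that were scanned together for the list were not named. The groups were ovaries of w1118 flies (wild type), ovaries in which nos-gal4 drove UASp-tkvM1 in germ cells, bamΔ86 ovaries, ovaries carrying bgcn20093 and bgcn20915, cultured vasa-GFP;hs-bam;bamΔ86 GSCs, and the GFP-negative support cells (SCs) sorted from the same cultures and labelled with the same stock. The ovary groups are whole organs that also hold follicle cells and other somatic cells, and the study describes low germ cell marker expression in the SCs. The 18 libraries make 30 samples, of which 12 are second entries titled lane2. These 12 are of the ovary groups, and the GSC and SC libraries have none. The list has 1 set of regions for the whole study, without a read count, a strand, or a value per library. No age was given in the labels, and the depth behind a region is unknown. Groups could therefore not be compared with each other, and the presence of a miRNA gene in a region says nothing of its level in any group.

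miRNAs are cut from hairpins. Drosha and Pasha release the hairpin from its primary transcript, and Dicer-1, with its partner Loqs, cuts out a short duplex. AGO1 holds 1 arm of the duplex, whose seed (bases 2 to 8) pairs with target mRNAs. piRNAs are longer, are made without Dicer from single-stranded transcripts of clusters, transposons, and some mRNAs, and guide PIWI proteins. The scan took reads of 23 to 35 nt, and the study sorted reads to miRNAs up to a length that overlaps with this range. Of the 481 mature arms annotated for the 260 genes, 177 belonged to genes in a region, and 33.9% of these were 23 nt or longer, compared with 29.3% of the 304 arms of genes outside. A U was the first base of 48.6% of the arms in regions and of 44.1% of those outside.

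Members that carry the same seed were found both in regions and outside. The mir-2 group, which in flies is known for repressing pro-apoptotic genes, shares the seed AUCACAG on its 3p arms. In the sequences below, read 5′ to 3′ from the RefSeq dm6 assembly, capitals mark the seed. The first 6 belong to genes in a region and show how alike the copies are.
mir-2a-1-3p: uAUCACAGccagcuuugaugagc
mir-2b-1-3p: uAUCACAGccagcuuugaggagc
mir-2c-3p: uAUCACAGccagcuuugaugggc
mir-13a-3p: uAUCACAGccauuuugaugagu
mir-13b-1-3p: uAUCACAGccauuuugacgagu
mir-11-3p: cAUCACAGucugaguucuugc
The next 5 are shown because their genes lay on different sides of the list although they share a seed: mir-9a and mir-92a lay outside, and mir-9b, mir-9c, and mir-92b lay in a region.
mir-9a-5p: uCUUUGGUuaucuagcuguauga
mir-9b-5p: uCUUUGGUgauuuuagcuguaug
mir-9c-5p: uCUUUGGUauucuagcuguaga
mir-92a-3p: cAUUGCACuugucccggccuau
mir-92b-3p: aAUUGCACuagucccggccugc

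Of the 10 genes of the mir-2 group (mir-2, mir-13, mir-11, and mir-308), 9 lay in regions and mir-308 did not, compared with 95 of all 260 miRNA genes (36.5%). These 10 genes form 6 genomic miRNA clusters, defined as miRNA genes on 1 strand with gaps of at most 10 kb, and 5 of the 6 had members in regions. The 9 genes in regions were spread over 3 chromosomes. Mir-2a-2, mir-2a-1, and mir-2b-2 lay in an intron of spi, which encodes the EGFR ligand Spitz, in a region of 3878 nt. Mir-13b-1, mir-13a, and mir-2c lay in the non-coding transcript lncRNA:CR45911, and mir-11 lay with mir-998 in an intron of E2f1, a cell cycle transcription factor. Mir-13b-2 lay in an intron of CCT2, a chaperonin subunit that was in a region over its whole length, and mir-2b-1 lay in the 3′ UTR of the kinase gene Btk, of which only 8.85% was in a region. The same seed is also found in mir-5 and the 3 copies of mir-6, all outside, so that 9 of its 14 genes were in regions. The mir-2 group was chosen with earlier results of these data known, and its share was not tested.

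Other shared seeds were split in the same manner. Among 33 seeds shared by at least 2 genes, 8 had all their genes in regions, 8 had none, and 17 had genes on both sides. The genes of the AUUGCAC seed were in regions for mir-310, mir-311, mir-312, mir-313, and mir-92b, and outside for mir-92a. In the group of CUUUGGU, mir-9b and mir-9c lay in regions and mir-9a, which shapes sensory organs, lay 9879 nt from the nearest one. Mir-318 was in a region, whereas mir-3 and mir-309, which share its seed CACUGGG, were outside. Mir-31a was in a region and mir-31b was not, although both of their arms share seeds. Mir-275 and mir-306, which share the seed CAGGUAC on opposite arms, were both in regions. Genes that share a seed thus lay on 1 side of the list for some seeds and on both sides for others, which was not tested against chance. The 33 seeds are not independent, since some pairs of genes share a seed on each arm.

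The edges of the regions were then set against the mature arms. In 7 miRNA genes the first or last base of a region fell inside the gene, and in each of the 7 it fell beside the outer end of a mature arm. The arm ended 0 to 3 nt inside the edge, and the whole arm of 22 to 25 nt was in the region. The 7 arms at the edges are printed next, with the seed in capitals, since they mark where these regions begin or end.
mir-965-5p: gGGGUAAAacuguacguuauaug
mir-956-3p: uUUCGAGAccacucuaauccauu
mir-994-5p: cUAAGGAAauaguagccgugau
mir-2c-5p: uCAUCAAAaagggcugaagaaagau
mir-92b-3p: aAUUGCACuagucccggccugc
mir-980-3p: uAGCUGCCuugugaagggcuua
mir-981-5p: cGGGUUUCguuagcagcgggcu
On the strand of the miRNA, the region began at the 5p arm and went on through the hairpin in 4 genes (mir-965, mir-994, mir-2c, and mir-981), and in 3 it ended just after the 3p arm (mir-956, mir-92b, and mir-980). Mir-965 (chr2L:243035-243141, minus strand) lay in an intron of the chromatin remodeler gene kis, and its region of 9200 nt, chr2L:233920-243119, reached 1 nt past the 5p arm. Mir-2c (chr3R:15417744-15417845, minus strand) and mir-981 (chrX:1788861-1788957, minus strand) had the edge on the first base of the 5p arm, 0 nt away. Mir-92b (chr3R:25651398-25651497, plus strand), in the 3′ UTR of jigr1, had the widest gap of 3 nt. Mir-956, mir-994, and mir-980 had a gap of 1 nt.

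**Figure D1:**
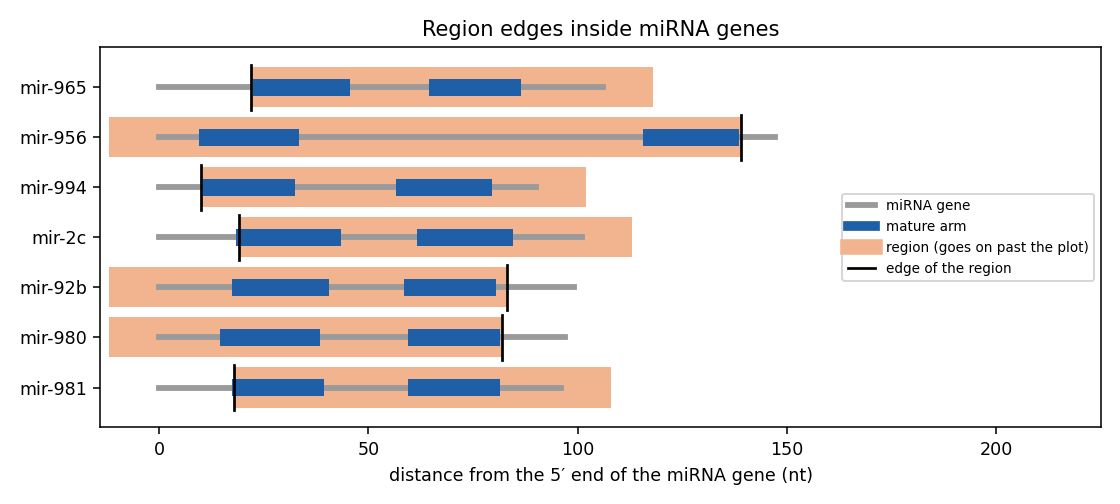
Each row is a miRNA gene with a region edge inside it, drawn 5′ to 3′ with the distance from its 5′ end in nt on the x axis: the grey line is the gene, blue bars are mature arms, the orange band is the region, and the black line is its edge. In all 7 genes the edge lies 0 to 3 nt beyond the outer end of an arm, and the band holds both arms.

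Over all miRNA genes there were 0.295 edges per kb, compared with 0.0488 per kb over the assembled chromosomes, at which rate the 23695 bases of the miRNA genes would hold 1.16 edges. One further edge lay within 50 nt of a miRNA gene, 19 nt from mir-2b-1. This pattern was found by looking at the data and was not tested. Of the 7 arms, 3 were annotated at 23 nt or more and 4 at 22 nt, which is shorter than the reads that the scan took. The reads at these edges were not analysed here, so whether miRNA reads took part in the calls was not tested. When a miRNA gene had to lie in a region over its whole length, the 7 genes were lost and the count fell from 95 to 88.

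The 95 miRNA genes made 36.5% of the 260. As background, 42.0% of all genes and 43.8% of protein-coding genes shared at least 1 bp with a region, but long genes meet a region more often than hairpins do. By midpoints alone, 36.5% of miRNA genes, 33.5% of all genes, and 33.1% of protein-coding genes lay in a region. The share of miRNA genes was thus close to that of genes at large. Other genes of at most 150 nt were in regions more often, at 58.9%, with 90.3% of snoRNA genes and 52.9% of tRNA genes, and other non-coding RNA genes less often, at 25.6%.

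To set these counts against chance placement, the list was rotated along each chromosome by a random offset, which keeps the widths and spacing of the regions. Rotated lists held 72.8 miRNA genes on average, with a middle 95% of 52 to 94, against the 95 observed. The count was 1.31-fold the rotated mean (two-sided permutation test, p = 0.048), and the adjusted p over the 5 tests made was 0.22, so that it did not pass after correction. With only the regions of at least 5000 nt the direction turned, and 62 miRNA genes were 0.964-fold the rotated mean. Genomic clusters (0.877-fold), hosted genes (0.950-fold), and unhosted genes (0.994-fold) turned as well. Counted as genomic miRNA clusters, 68 of 203 (33.5%) had a member in a region, whereas rotated lists had a mean of 58.2 (permutation test, p = 0.19, adjusted p = 0.31). A difference from rotated lists was therefore not shown for the whole genome.

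The list is denser near the centromeric ends. Farther than 6 Mb from the centromeric end of the 5 large arms, regions covered 17.0% of the bases, compared with 27.7% over whole arms. There 81 of 214 miRNA genes (37.9%) lay in a region, and rotated lists held a mean of 38.2. The two-sided permutation test gave p = 2e-05, the smallest that the rotations can give. This setting is among the alternatives, and its p was not corrected. By genomic miRNA clusters, 57 of 175 had a member in a region, a 1.82-fold difference with the same p, also not corrected. The midpoints of all genes were in regions at 30.7% in this part of the arms, also far above the share of bases. Other genes of at most 150 nt were in regions there more often than miRNA genes, at 57.7% (577 of 1000). The difference between miRNA genes and other genes was not tested.

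**Figure D2:**
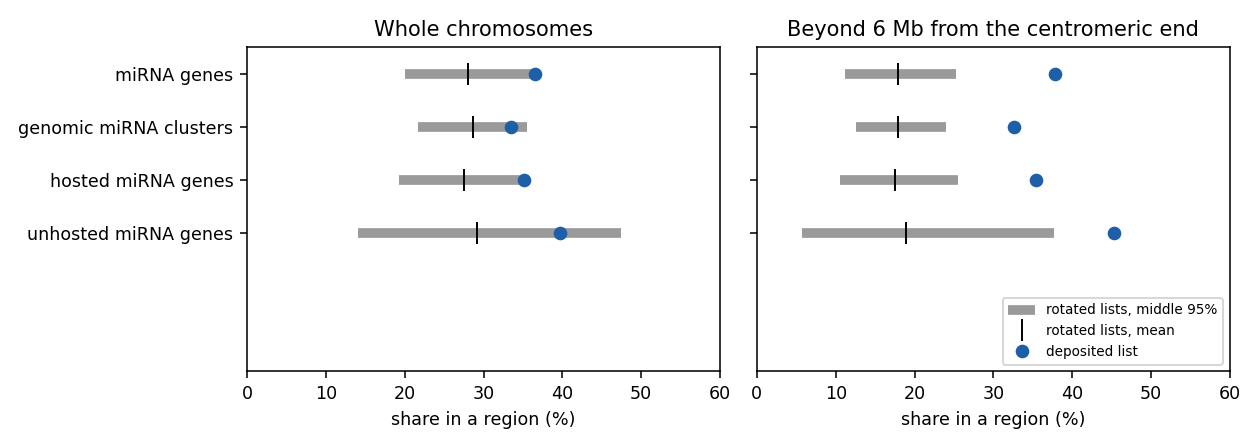
Share of miRNA genes, genomic miRNA clusters, hosted miRNA genes, and unhosted miRNA genes in a region (blue points, percent on the x axis) with the mean (black tick) and the middle 95% (grey bar) of 100000 rotated lists, for whole chromosomes and for positions beyond 6 Mb from the centromeric end. Over whole chromosomes miRNA genes lie at the upper end of the rotated range (36.5% against a mean of 28.0%), and beyond 6 Mb all 4 points lie above the bar.

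Chromosomes differed in the share of miRNA genes in regions. It was 22 of 56 (39.3%) on 2L, 18 of 55 (32.7%) on 2R, 24 of 58 (41.4%) on 3R, and 23 of 58 (39.7%) on X. Chromosome 3L had the lowest share, with 6 of 31 (19.4%), although regions covered 28.3% of it. Both miRNA genes of chromosome 4 were in regions, which covered 72.0% of that chromosome. On 2R the order was also turned, with regions on 38.6% of the bases and on 32.7% of the miRNA genes.

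Genomic miRNA clusters, in which several hairpins are usually cut from 1 primary transcript, mostly lay wholly in regions or wholly outside. Of the 22 genomic clusters with at least 2 genes, 13 had all genes in regions, 8 had none, and 1 was split. In the 13, the genes of a cluster shared a single region. No region held more than 1 genomic miRNA cluster. Members of these 22 clusters were in regions at 51.9% (41 of 79), and miRNA genes that stand alone at 29.8% (54 of 181), where neighbors in a cluster do not count as independent.

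The cluster with the most genes in a region was that of mir-310 to mir-313 with mir-2498, mir-991, and mir-992 on 2R, which is expressed in the ovary and testis and has no host gene. All 7 genes span 1654 nt and lay in a region of 4491 nt. Mir-982, mir-303, the 2 copies of mir-983, and mir-984 on X lay together in a region of 10452 nt. Mir-9c, mir-306, mir-79, and mir-9b lay in an intron of grp, the gene of the Chk1 kinase, in a region of 6467 nt. Mir-317, mir-277, and mir-34, which are linked to ageing and metabolism, span 9909 nt and lay in 1 region of 13800 nt. The 13 also included mir-275 with mir-305, mir-283 with mir-304 and mir-12 in Gmap, mir-279 with mir-996, mir-994 with mir-318, mir-281-1 with mir-281-2 in Oda, mir-998 with mir-11, mir-1007 with mir-2535b in Abca3, and the mir-2 and mir-13 clusters given above.

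The split cluster was that of mir-92a and mir-92b in jigr1. Its region of 2622 nt ended at the 3p arm of mir-92b and began past mir-92a. The largest cluster outside was that of mir-972 to mir-979 on X, whose 12 genes span 10780 nt. The 8 genes from mir-309 to mir-6-3, which act in clearing maternal mRNA in the early embryo, and the 6 genes from mir-959 to mir-964 were also outside. So were mir-100, mir-let7, and mir-125, which share 1 transcript and time the change from larva to adult. Of the 13 genes listed for the testis-linked X clusters, 5 (38.5%) were in regions, close to the 36.5% of all miRNA genes. All 5 came from the cluster of mir-982 to mir-984, 1 of the 2 genomic clusters in this list.

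**Figure D3:**
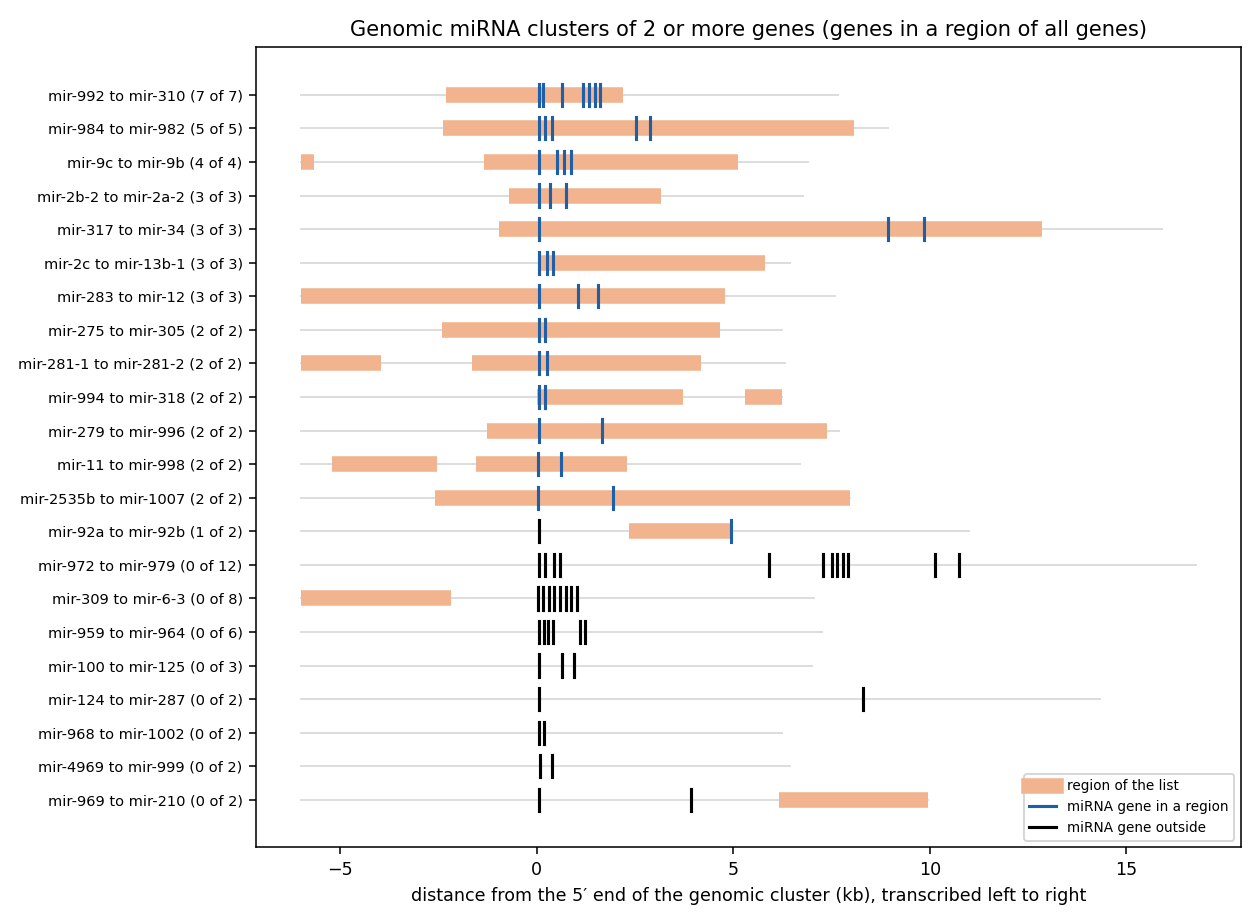
The 22 genomic miRNA clusters of at least 2 genes, each drawn 5′ to 3′ with the distance from its 5′ end in kb on the x axis: orange bars are regions, blue ticks miRNA genes in a region, and black ticks miRNA genes outside, with the count in a region beside each name. In 13 clusters 1 bar spans all ticks, in 8 no bar reaches a tick, and the mir-92a to mir-92b cluster has 1 tick of each kind.

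Among 20 miRNA genes picked for known roles or expression in the ovary and germline, 11 (55%) lay in regions. The share of all miRNA genes was 36.5%. By genomic clusters, 5 of 12 had a listed gene in a region, compared with 68 of 203 (33.5%) for all genomic clusters. Mir-310 to mir-313 shared a genomic cluster, as did mir-9c, mir-306, and mir-79. Mir-7, which targets bam and acts in GSC division, lay in an intron of HnRNP-K, in a region of 3248 nt. Mir-318, expressed in follicle cells, was also in a region. So were mir-275 and mir-305, which were on the list although the role cited here, that of mir-305, is in intestinal stem cells. Bantam, needed for GSC maintenance, lay 7939 nt from the nearest region. Mir-let7, mir-100, mir-125, mir-8, mir-14, mir-184, mir-278, and mir-989 were outside too, and among them mir-184, which is needed in oogenesis, was 80769 nt away and mir-989, which guides border cell migration, 2495 nt away. Of 8 miRNA genes of muscle, nerve, and Hox clusters (mir-1, mir-124, mir-133, mir-9a, mir-137, mir-10, mir-iab-4, and mir-iab-8), 0 were in regions, compared with 36.5% of all miRNA genes. Both Hox miRNAs mir-iab-4 and mir-iab-8, which are read from opposite strands of 1 hairpin, lay 140712 nt from a region. These lists are short, were drawn up with earlier results of these data known, and were not tested.

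Host genes were examined next, since many miRNAs are cut from introns. A miRNA gene was called hosted when another gene on the same strand spanned it. Hosted miRNA genes were in regions at 35.2% (64 of 182, 1.28-fold the rotated mean, permutation test, p = 0.086, adjusted p = 0.22), and unhosted ones at 39.7% (31 of 78, 1.36-fold the rotated mean, permutation test, p = 0.27, adjusted p = 0.34). The shares differed by -4.58 percentage points, hosted minus unhosted, and rotated lists gave differences between -21.6 and 15.2 in their middle 95% (permutation test, p = 0.73).

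The share was then taken by the kind of host. In protein-coding hosts 55 of 136 miRNA genes (40.4%) lay in regions, where rotated lists had a mean of 36.8 (permutation test, p = 0.0052, one of the alternatives, not corrected). In non-coding hosts 9 of 46 (19.6%) did, and these 9 were mir-275, mir-277, mir-34, mir-13b-1, mir-13a, mir-2c, mir-279, mir-996, and mir-4951. Such hosts can be the primary transcript of the miRNA itself, as for let-7, and the genes outside included bantam, let-7, mir-1, mir-8, mir-14, mir-124, and mir-184. The share was 42.0% for introns of coding genes without mirtrons (29 of 69), 45.5% for 3′ UTRs (5 of 11), and 33.3% for 5′ UTRs (2 of 6), and 4 of 16 in coding sequence were in regions. The difference between these places was not tested.

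Mirtrons are short introns that are themselves the hairpin and need no Drosha. Of 34 mirtrons, with both ends within 5 nt of those of an intron, 15 (44.1%) lay in regions. They included mir-4917 in yl, which encodes the yolk protein receptor of the oocyte, and mir-1013 in wts, a kinase of the Hippo pathway. The region of mir-4917 covered 88.2% of yl, and that of mir-1013 lay on a gene with 30.6% of its length in regions. Among hosts whose miRNA was in a region, SKIP with mir-1010 had the smallest part in regions, 4.40%.

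Hosts were themselves in regions to different degrees. Of 124 protein-coding hosts, 76 (61.3%) shared at least 1 bp with a region, compared with 43.8% of all protein-coding genes, and hosts were longer, with a median of 13462 nt against 2163 nt. The 45 hosts whose miRNA was in a region had a median of 73.8% of their length in regions, and 30 of them had at least 50%. Among the 79 hosts whose miRNA was outside, 31 still touched a region, and only 1 had at least 50% in regions. The hosts with the miRNA in a region were shorter, with a median of 6733 nt against 17111 nt. Host genes that lay in regions over their whole length included SREBP with mir-33, CCT2 with mir-13b-2, and msl-2 with mir-4971.

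**Figure D4:**
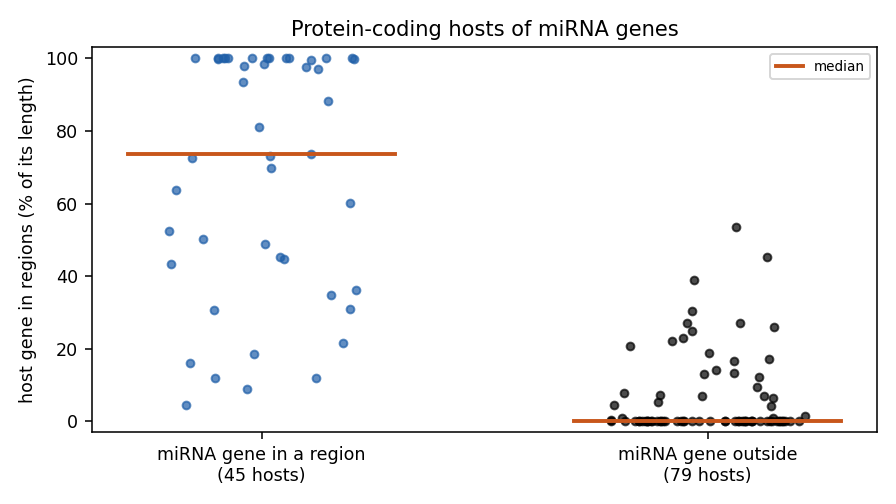
Share of the length of each protein-coding host gene in regions (percent on the y axis; 1 point per host, spread sideways only to separate points) for the 45 hosts with a miRNA gene in a region and the 79 with the miRNA outside, with the median of each group as an orange line. The medians are 73.8% and 0%, and the rule that puts the miRNA in a region makes the first group start above 0.

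The 68 regions with a miRNA gene had a median width of 9000 nt, compared with 6473 nt for all regions, and a wider region meets any gene more often. They ranged from 2116 nt, in ssx with mir-4961, to 124516 nt with mir-10404-4. The paper reports that most of the new clusters overlap annotated genes, and the share of all regions with a protein-coding gene was not counted here. A region whose miRNA gene has a protein-coding host holds part of that host by definition. The next count therefore cannot be read as a trait of these regions. All but 3 of the 68 also held part of a protein-coding gene, with a median of 2 such genes and at most 11. The 3 held mir-10404-3, mir-10404-4, and mir-10404-5, which lie among ribosomal RNA genes and pseudogenes on X and share their seeds. Without these copies 92 of 257 miRNA genes were in regions.

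The share of positions in a region was also followed along both sides of the miRNA gene. Averaged over 203 genomic clusters, 33.3% of the positions at the hairpin were in a region, and 26.7% at 1 kb upstream but 32.3% at 1 kb downstream. At 5 kb the values were 22.2% upstream and 26.1% downstream, whereas at 10 kb the upstream value was the higher (26.3% and 23.2%), and at 20 kb (25.5% and 24.8%) and 50 kb (25.2% and 25.9%) they were close. In protein-coding hosts the share was 26.7% at 1 kb upstream, 35.9% at the hairpin, and 34.7% at 1 kb downstream. For unhosted genes the same 3 values were nearly level, at 38.0%, 40.0%, and 39.1%. In non-coding hosts they were 12.5%, 15.6%, and 15.6%. These are descriptions without a test.

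**Figure D5:**
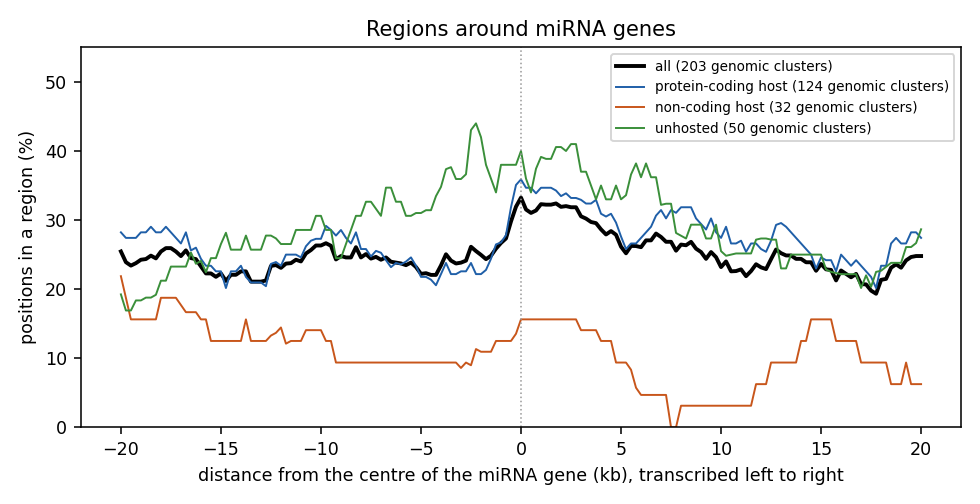
Percent of positions in a region (y axis) against the distance from the centre of the miRNA gene in kb (x axis, transcribed left to right), averaged over genomic miRNA clusters, for all clusters and by kind of host. The line for all clusters rises from 26.7% at 1 kb upstream to 33.3% at the hairpin and stays at 32.3% at 1 kb downstream, and the line for non-coding hosts is the lowest at the hairpin, with 15.6%.

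The median distance of miRNA genes in regions to the nearer edge was 1980 nt, and 16 of 95 lay within 500 nt of an edge. The median position was 37.3% of the way from the upstream edge, with a range from 0.337% to 98.7%. Whether these positions differ from random placement inside the regions was not tested. Members outside were a median of 12032 nt from the nearest region, with a range from 137 nt (mir-4979) to 143142 nt (mir-276a), and 93 of 165 were more than 10000 nt away. Only 5 were within 1000 nt, among them mir-314 at 638 nt, a neighbor of mir-956, and mir-137 at 887 nt.

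The genes of the miRNA machinery were also looked up. Of 15 genes, 13 shared at least 1 bp with a region, which is to be read against 43.8% of protein-coding genes. The 15 ran from 1952 nt (r2d2) to 14703 nt (AGO1), and the median of all protein-coding genes was 2163 nt. Longer genes meet a region more often, no share was taken at matched length, and the difference was not tested. Drosha, pasha (83.4% of its length), and the exportin gene Ranbp21 were in regions, as were AGO1 (56.6%) and gw, whose product silences the targets of AGO1. The 2 genes outside were Dcr-1, whose product cuts the duplex out of the hairpin, and loqs, which encodes its partner. Dcr-2 and r2d2 (89.0%) of the siRNA branch, AGO2, and the methyltransferase gene Hen1 were in regions. The trimming exonuclease gene Nbr, Tailor, Dis3l2, and me31B lay in regions over their whole length.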

How the data were processed

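The deposited values were the start and end of each region on dm6, without counts, scores, or strand. Per the methods, the authors mapped reads to TE sequences with Bowtie2, placed the rest on the genome with Bowtie, scanned reads of 23 to 35 nt, merged stretches within 250 nt, required a density of 3 or more unique piRNA reads per kb, joined stretches up to 1000 nt apart, and dropped those of 2000 nt or less. Multi-mapped reads were used at this step. The libraries scanned together were not named, so no depth per sample bears on a region.

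Genes were those of Ensembl release 115 without TE insertions, and mature arms and sequences were those of RefSeq on the same assembly. Sequences of 2R were not printed. Chance came from 100000 rotations with a fixed seed, for 5 tests with Benjamini-Hochberg adjustment, and the rotation test was tested on simulated lists. The named miRNA genes were 5 lists by role, the genes of genomic clusters, the pathway genes, and the extremes of width and distance. The members of the edge pattern, the host examples, and the other seed groups were chosen after their values were seen. Members and lists were chosen with earlier results of these data known. Alternatives changed the overlap, region width, chromosome part, gap, host rule, or left out an arm. Libraries of mRNA were not used. Python 3.11.15, NumPy 2.4.6, and matplotlib 3.10.9 were used.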

Additional observations from a re-analysis of the deposited data

How the results depend on the processing

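All p-values here are from the two-sided permutation test by rotation. Of 70 alternatives, 46 kept the direction and the side of the threshold. In the permutation test of all miRNA genes, the fold over rotated lists was 1.23 when the whole miRNA gene had to be in a region (p = 0.15), 1.19 when a region within 1000 nt sufficed (p = 0.18), and 1.28 without the mir-10404 copies, an alternative chosen after seeing the data (p = 0.077). With regions of at least 5000 nt the fold turned below 1 in the permutation test for miRNA genes (0.964, p = 0.88), genomic clusters (0.877, p = 0.4), hosted genes (0.950, p = 0.84), and unhosted genes (0.994, p = 1). With regions of at least 10000 nt the permutation test gave 0.816 (p = 0.38) for miRNA genes, 0.805 (p = 0.25) for genomic clusters, and 0.709 (p = 0.16) for hosted genes, and the cause was not tested. Farther than 2 Mb from the centromeric end, the permutation test gave 1.33 (p = 0.02) for genomic clusters and 1.54 (p = 0.003) for hosted genes, and unhosted genes did not pass (1.46, p = 0.25). Farther than 6 Mb, the permutation test gave 1.82 (p = 2e-05) for genomic clusters, 2.02 (p = 6e-05) for hosted genes, and 2.39 (p = 0.01) for unhosted genes. With protein-coding hosts only, hosted genes had a fold of 1.49 (permutation test, p = 0.0052). The difference of hosted minus unhosted genes turned to 0.637 percentage points farther than 2 Mb (permutation test, p = 0.94) and to 8.18 with protein-coding hosts only (permutation test, p = 0.23). When each large arm was left out in turn, the fold ranged from 1.20 (without X) to 1.50 (without 2R) for miRNA genes, from 1.06 (without X) to 1.35 (without 2R) for genomic clusters, and from 1.13 (without 2L) to 1.51 (without 2R) for hosted genes. For miRNA genes the permutation p was 0.2 without 2L, 0.21 without 3R, and 0.23 without X, and without 2R it fell to 0.017 for genomic clusters and 0.0041 for hosted genes, the latter also passing without 3L (p = 0.044).

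No paired analysis was possible because the list holds 1 set of regions for all libraries. For the same reason no library was left out and no groups were compared. The depth is unknown, and absence of a miRNA gene from the list sets no upper limit on piRNA reads at it.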
